A study of Mus musculus with 36 samples.

Results

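Oxidative phosphorylation runs on protein complexes of the inner mitochondrial membrane, and the nuclear genes for their subunits are described here in mice given DMOG, roxadustat or PBS. The genes were taken by symbol from both expression tables: names beginning with Nduf, Sdh, Uqcr, Cox and Atp5 in the patterns of the complex subunits, kept where the 18 libraries of either table averaged 0.5 FPKM or more. Of 22558 genes listed, 90 symbols matched. Of these, 5 isoforms and paralogs were set aside by name, 2 were below the level, and 83 remained. FPKM is a fragment number scaled by transcript length and by the mapped fragments of the library. Just inside the level was Cox6a2, at a mean of 0.504 FPKM in the table labelled liver, and just outside were Cox7b2, at 0.0279 FPKM there, and Cox8c, listed at 0. The 83 genes hold 76 subunits: 36 of complex I (7 catalytic core and 29 accessory), 4 of complex II, 8 of complex III, 13 of complex IV and 15 of ATP synthase. The other 7 are no subunits. Ndufaf1, Ndufaf2, Ndufaf3 and Ndufaf4 are complex I assembly factors, and Atp5s, Atp5sl and Cox4nb were matched by symbol. RefSeq lists Atp5s as Dmac2l and Atp5sl as Dmac2. Atp5s is also known as coupling factor B of ATP synthase, and Dmac2 as an assembly factor of complex I. Cox4nb, the neighbour of a Cox4 gene, is listed as Emc8 in RefSeq and encodes a subunit of the endoplasmic reticulum membrane protein complex.

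The study compared stabilisers of hypoxia-inducible factor (HIF), with the prevention of retinopathy of prematurity named as its setting. Total RNA was sequenced after ribosomal RNA depletion. There were 6 libraries of DMOG, 6 of roxadustat and 6 of PBS for each tissue label, 36 in all, from C57BL/6 mice with no genotype or transgene named in any group. Dose, time, age and sex are not given in the labels, nor whether libraries of a group came from separate animals, so p-values measure only the spread between these libraries. DMOG (dimethyloxalylglycine) is a 2-oxoglutarate analogue that blocks 2-oxoglutarate-dependent dioxygenases in general, and roxadustat is a drug developed against the HIF prolyl hydroxylases. PBS, a salt solution, was the control.

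Complex I takes electrons from NADH and complex II from succinate, and both pass them to ubiquinone. Complex III hands them to cytochrome c, complex IV to oxygen, and ATP synthase uses the proton gradient that complexes I, III and IV build. HIF is known to lower the use of oxygen by mitochondria, in part by diverting pyruvate and by exchanging respiratory subunits. Photoreceptor inner segments and hepatocytes are both known to be rich in mitochondria.

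Marker genes placed the tissues the other way round from the labels. Sag, the rod arrestin gene, had 2166 to 3683 FPKM in libraries labelled liver and at most 0.473 FPKM in those labelled retina. Apoa1, an apolipoprotein gene of hepatocytes, had 6299 to 12790 FPKM in libraries labelled retina and at most 0.516 FPKM in those labelled liver. Results are therefore given by label with the transcriptome beside it. One library stood apart: DMOG replicate 5 labelled retina (liver transcriptome) had 8.23 FPKM of Egln3, a HIF prolyl hydroxylase gene and known HIF target, against 46.4 to 72.5 FPKM in the other 5 DMOG libraries. Egln3 had 16.9 to 20.4 FPKM in the 6 roxadustat libraries and 5.19 to 8.29 FPKM in the 6 PBS libraries there. That DMOG library keeps its label, and results that rest on it are given with and without it. Under the label liver (retina transcriptome), Egln3 had 1.333 to 2.729 FPKM with DMOG and 1.613 to 2.615 FPKM with roxadustat. PBS libraries there had 1.04 to 2.14 FPKM, overlapping both. Summed FPKM was 542785 to 617853 per library labelled liver and 433021 to 540324 per library labelled retina, and the number of reads is unknown.

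Promoters are shown for 4 members: Ndufb11, the only subunit whose level passed a test against PBS, Cox6a1 and Sdhd, which hold binding motifs of respiratory gene regulators, and Cox7a1, a muscle isoform. The sequences are from RefSeq on build GRCm38.p6, another build than the mm9 named in the submitters' processing notes, and cover the 250 bases before the annotated start, 5′ to 3′ on the strand of the gene. Capitals mark matches on either strand to an NRF1 motif (GCGCA, any letter, then GCGC) or an ETS family motif (CCGGAAG, which reads CTTCCGG on the other strand). NRF1 and the ETS factor GABP are known activators of nuclear respiratory genes.
Ndufb11: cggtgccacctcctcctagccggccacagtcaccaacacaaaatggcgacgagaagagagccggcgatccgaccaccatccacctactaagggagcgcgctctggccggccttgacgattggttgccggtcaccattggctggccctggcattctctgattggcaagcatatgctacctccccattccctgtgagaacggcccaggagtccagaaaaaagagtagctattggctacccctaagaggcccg
Cox6a1: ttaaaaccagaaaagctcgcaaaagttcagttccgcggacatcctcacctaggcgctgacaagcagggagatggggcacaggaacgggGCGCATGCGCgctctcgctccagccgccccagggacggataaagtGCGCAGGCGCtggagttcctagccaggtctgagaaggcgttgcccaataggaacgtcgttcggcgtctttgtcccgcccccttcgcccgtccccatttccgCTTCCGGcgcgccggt
Sdhd: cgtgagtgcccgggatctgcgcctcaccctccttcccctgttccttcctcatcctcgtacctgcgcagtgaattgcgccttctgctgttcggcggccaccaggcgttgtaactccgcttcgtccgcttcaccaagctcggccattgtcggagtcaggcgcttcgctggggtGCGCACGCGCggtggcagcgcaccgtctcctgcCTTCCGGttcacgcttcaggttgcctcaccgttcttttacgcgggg
Cox7a1: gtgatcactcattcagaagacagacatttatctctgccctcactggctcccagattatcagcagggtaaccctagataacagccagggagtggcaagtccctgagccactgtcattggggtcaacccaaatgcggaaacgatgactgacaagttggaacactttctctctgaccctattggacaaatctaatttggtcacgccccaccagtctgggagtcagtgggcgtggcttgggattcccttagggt
These stretches lie at chrX:20617620-20617869 on the minus strand for Ndufb11, chr5:115348959-115349208 on the minus strand for Cox6a1, chr9:50603850-50604099 on the minus strand for Sdhd and chr7:30183921-30184170 on the plus strand for Cox7a1. Cox6a1 held the NRF1 motif at -162 to -153 and at -117 to -108 and the ETS motif at -16 to -10, counted back from the start. Sdhd held the NRF1 motif at -79 to -70 and the ETS motif at -46 to -40. Ndufb11 and Cox7a1 held neither.

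RefSeq windows of 300 bases (250 before and 50 after the start) were matched for 71 of the 83 genes, in 77 windows. The NRF1 motif occurred in 24.7% of them and in 4.6% of all 32851 windows of that length. The ETS motif occurred in 20.8% against 8.86%, and a YY1 motif (AAGATGG) in 16.9% against 6.34%. The HIF core motif (ACGTG), a short sequence, occurred in 27.3% against 19.6%. Median GC content was 58.7% in the windows of the members and 52.7% in all windows. A match says only that the letters are there. None of these motifs contains another.

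The subunit genes were among the more abundant mRNAs of both tissues, with a wide range inside each complex. In the table labelled liver (retina transcriptome) 79 of the 83 members lay above the median gene tested (11.6 FPKM), and in that labelled retina (liver transcriptome) 76 did (median 7.04 FPKM). The 76 subunits held 3.35% to 3.84% of the FPKM total of a library labelled liver and 2.66% to 3.43% of a library labelled retina. Atp5b, the catalytic beta subunit of ATP synthase, had the highest mean of all members in both tables, at 1025 FPKM under the label liver and 779 FPKM under the label retina. Within ATP synthase, Atp5j, a stalk subunit, was lowest in both, at 158.6 FPKM under the label liver and 159.3 FPKM under the label retina. Complex I ran between Ndufa11 at 21.9 FPKM and Ndufb8 at 417 FPKM under the label liver, and between Ndufa11 at 11.6 FPKM and Ndufb9 at 222 FPKM under the label retina. Complex II, whose subunits all come from nuclear genes, spanned the least: 105.7 (Sdha) to 150.8 FPKM (Sdhc) under the label liver and 129.3 (Sdhb) to 172.3 FPKM (Sdhd) under the label retina. Complex III ran between Uqcrfs1, the Rieske iron-sulphur protein, at 130.8 FPKM and Uqcr11 at 402 FPKM under the label liver, and between Uqcrc2 at 131.2 FPKM and Uqcrq at 531 FPKM under the label retina.

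**Figure D1:**
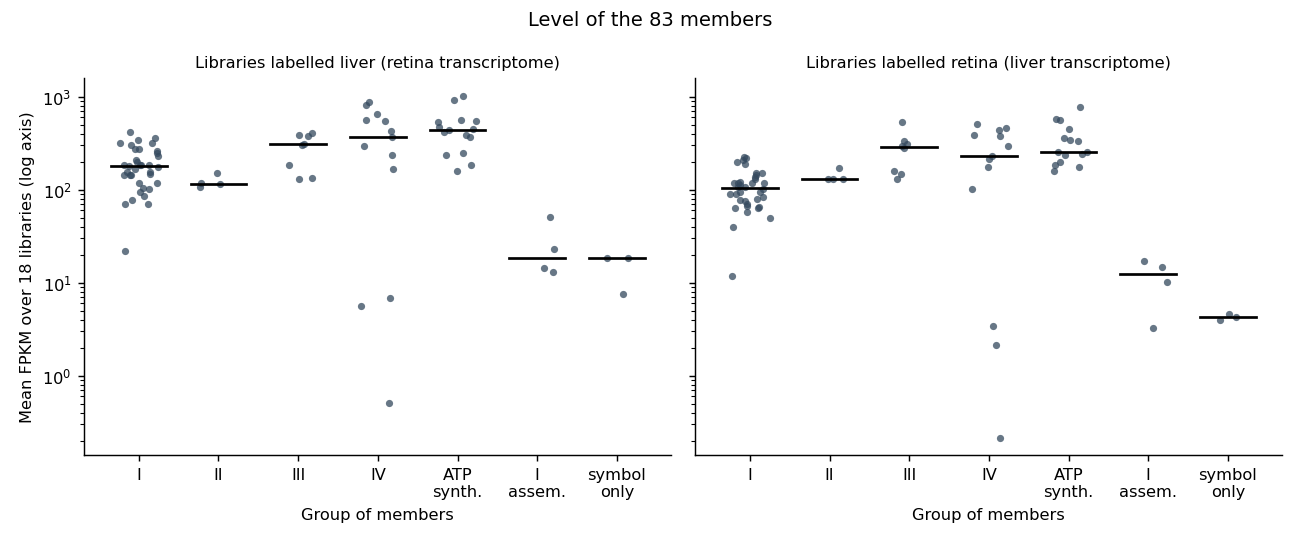
Mean FPKM of each of the 83 genes over 18 libraries (log axis), by complex, in the tables labelled liver and labelled retina; points are genes and bars are medians. ATP synthase and complexes III and IV have the highest medians, and the 3 low points in complex IV are Cox6a2, Cox7a1 and Cox6b2.

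Levels in the tables ran in nearly the same order (Spearman's rho of 0.902 over the 83 genes, which share their libraries and are not independent). The tables were normalized separately, so ratios between them are a description with no test. The mean was higher under the label liver for 70 of 83 members, but for only 6 of the 12 members of complexes II and III. Sdhd had a ratio of label liver over label retina of 0.683 and Uqcrq of 0.711, the lowest of all. Ndufaf3 had 4.96 and Cox4nb 4.70, the highest.

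Complex IV contains subunits with tissue isoforms, and in both tables the ubiquitous form prevailed. Cox6a1, the ubiquitous form of subunit 6A, averaged 551 FPKM under the label liver and 376 FPKM under the label retina, while the muscle form Cox6a2 averaged 0.504 FPKM under the label liver and 0.212 FPKM under the label retina. Cox6b1 averaged 556 FPKM and the testis form Cox6b2 6.82 FPKM under the label liver, and 437 and 3.42 FPKM under the label retina. Cox7a2 averaged 368.5 FPKM and the muscle form Cox7a1 5.56 FPKM under the label liver, and 210.9 and 2.15 FPKM under the label retina. Cox7a2l, a relative of Cox7a2 that helps to join complexes III and IV and of which C57BL/6 mice are known to carry a shortened allele, averaged 236 FPKM under the label liver and 100.2 FPKM under the label retina. Of 18 skeletal and heart muscle markers, 5 passed the filter under the label liver and 1 under the label retina, where Mb and Myh4 were at 0, and their part in the low levels of Cox6a2 and Cox7a1 was not tested. Of the genes for the c ring of ATP synthase, which encode the same mature protein, Atp5g3 was highest in both tables. Atp5g3, Atp5g2 and Atp5g1 averaged 544, 369 and 245 FPKM under the label liver and 562, 238 and 256 FPKM under the label retina.

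In libraries labelled liver (retina transcriptome), DMOG left subunit mRNAs close to the PBS level. None of the 83 members passed the test against PBS (limma with Benjamini-Hochberg adjustment over 13779 genes, adjusted p under 0.05), where 1.07% of all genes did (0.37% as higher and 0.697% as lower). At an unadjusted p under 0.05 there were 9 members higher and 1 lower. The share of all genes at that unadjusted threshold was not counted, here or in the comparisons below. The members' median log2 fold change was 0.02, beside 0.01 over all genes tested. The 95% interval of 82 of the 83 members lay within ±0.5 on the log2 scale, a change of 1.41-fold, as did that of 90.8% of all genes. Fold changes here are on the log2(FPKM + 0.5) scale, which understates those of low genes, and in bulk RNA fewer cells of a type and less RNA per cell cannot be told apart.

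By complex, the medians with DMOG under the label liver (retina transcriptome) were 0.03 for complex I, 0.09 for complex II, -0.02 for complex III, 0.01 for complex IV and 0.03 for ATP synthase. All 4 complex II genes were above 0, between 0.02 for Sdhb and 0.10 for Sdhd, and none of them passed the test. After every library was rescaled to an equal FPKM total, 3 of the 4 were above 0, and the median of complex IV was -0.01. Ndufv3, an accessory subunit of the NADH-binding module, came closest, with 357.5, 379.8 and 395.3 FPKM as lowest, median and highest of the DMOG libraries and 307.8, 325.8 and 365.2 FPKM of the PBS libraries. The groups overlapped, and the log2 fold change was 0.19 ± 0.05 (SE; adjusted p = 0.0794, limma). Without PBS replicate 5, Ndufv3 was called. The highest values of the other large complexes were 0.12 ± 0.05 for Atp5o, the stalk subunit that confers oligomycin sensitivity, 0.13 ± 0.05 for Cox5b and 0.10 ± 0.04 for Uqcrfs1, and the lowest of complex I was -0.10 for Ndufa1. Cox6a2 had the lowest fold change, -0.53 ± 0.19 (adjusted p = 0.223), on levels of 0.161 to 0.551 FPKM with DMOG and 0.295 to 1.66 FPKM with PBS. Cox6a2 reached the filter through its PBS libraries, where replicate 1 alone was above 1 FPKM.

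Lens RNA moved with treatment in these libraries. All 9 lens markers listed were called lower with DMOG and 3 of the 9 with roxadustat, and their summed level was 14.6 to 1003 FPKM with DMOG, 202.3 to 12330 FPKM with roxadustat and 2147 to 23550 FPKM with PBS. Summed rod markers were 10830 to 18190 FPKM with DMOG, 10860 to 14180 FPKM with roxadustat and 10350 to 15610 FPKM with PBS, with no marker of 12 called for either drug. Casq1 was the only muscle marker called with DMOG (log2 fold change -0.72), among summed levels of 11.5 to 13.7 FPKM with DMOG and 11.4 to 15.6 FPKM with PBS. Of 5 erythroid markers tested, Hbb-b1 was called higher with roxadustat (0.89), among summed levels of 57.8 to 90.7 FPKM with DMOG, 34.4 to 96.3 FPKM with roxadustat and 30.7 to 58.7 FPKM with PBS. The part of lens or blood RNA in the subunit values, Ndufb11 below included, was not tested.

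**Figure D2:**
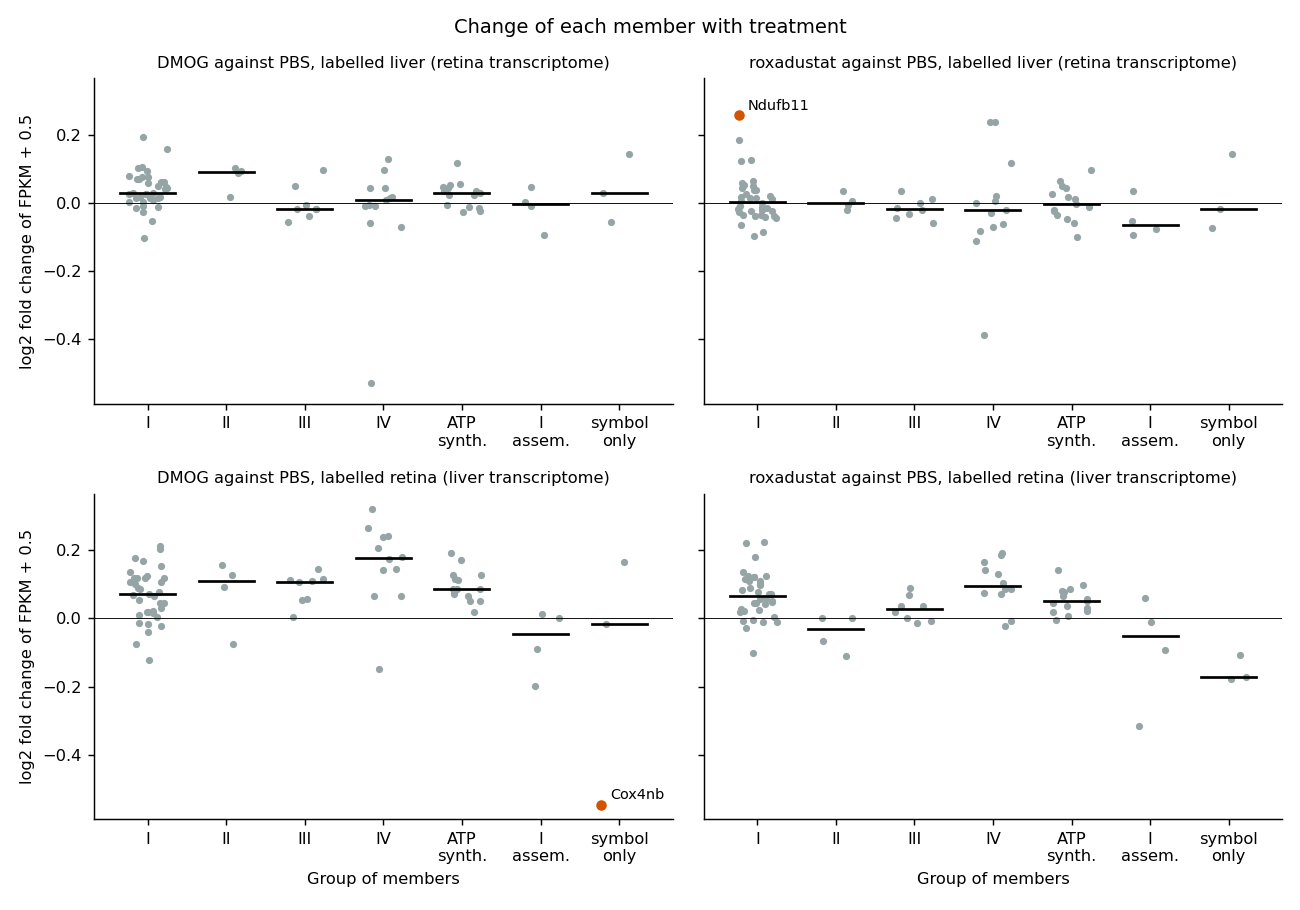
Log2 fold change of FPKM + 0.5 against PBS for each member, by complex, for DMOG (left) and roxadustat (right) under the labels liver (top) and retina (bottom); bars are medians, orange points passed the test. Ndufb11 with roxadustat under the label liver (0.26) and Cox4nb with DMOG under the label retina (-0.55) are the points that passed.

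With roxadustat under the label liver (retina transcriptome), 1 of the 83 members was called, Ndufb11, which rose. Of all genes 2.34% were called, 1.69% as higher and 0.653% as lower. Ndufb11 is an X-linked accessory subunit of the membrane arm of complex I. Its lowest, median and highest levels were 301.5, 330.0 and 363.9 FPKM with roxadustat, against 264.6, 278.4 and 294.2 FPKM with PBS. Every roxadustat library was above every PBS library. The group means were 333.9 ± 23.4 and 279.1 ± 13.1 FPKM (SD, n = 6 each), and the log2 fold change was 0.26 ± 0.06 (SE; adjusted p = 0.0183, limma). DMOG libraries had 259.3, 275.4 and 324.0 FPKM, overlapping both other groups. The call was lost without roxadustat replicate 3 (0.24, adjusted p = 0.0543) and after rescaling to an equal FPKM total (0.23, adjusted p = 0.0764), and kept in the other 27 of 29 alternatives. Sex, read from Xist and Y-linked genes, was 3 female and 3 male libraries in both groups, and with sex in the model the value was 0.26 (adjusted p = 0.0228).

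Among the remaining members of that comparison, 6 in all were higher and 2 lower at an unadjusted p under 0.05, Ndufb11 included. The median of the 83 was -0.01, beside -0.00 over all genes. Complex medians lay between -0.02 for complexes III and IV and 0.00 for complex I. Ndufv3 had 350.5, 373.4 and 403.5 FPKM as lowest, median and highest with roxadustat, against 307.8, 325.8 and 365.2 FPKM with PBS (0.18 ± 0.05, adjusted p = 0.0622, limma). It was called without PBS replicate 5. Ndufs1, the largest core subunit of complex I and carrier of several iron-sulphur clusters, had 62.3 to 71.7 FPKM with roxadustat and 70.0 to 74.3 FPKM with PBS (-0.10 ± 0.04, adjusted p = 0.157). Cox7a1 and Cox6b2, both low, had 0.24 ± 0.14 and 0.24 ± 0.15, and their intervals and that of Cox6a2 were the 3 that reached beyond ±0.5.

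Set against DMOG directly under the label liver (retina transcriptome), roxadustat gave 1 call among the 83 members, Ndufb11 again as higher (0.24 ± 0.06, adjusted p = 0.0348, limma), where 1.31% of all genes were called (0.98% as higher and 0.334% as lower). Doses and times of the compounds are not given, so they may not match. The groups overlapped through DMOG replicate 1, at 324.0 FPKM. This call was lost without any one of DMOG replicates 2, 3, 4, 5 or 6 or roxadustat replicates 2, 3, 4 or 5, with adjusted p up to 0.109 over all alternatives, and also with sex in the model (adjusted p = 0.0553). Of the other members 11 were lower and 1 higher at an unadjusted p under 0.05, among them 4 of the 7 core subunits of complex I. All 7 core subunits were below 0, with a median of -0.08. Ndufs1 had 62.34, 66.48 and 71.70 FPKM as lowest, median and highest with roxadustat, against 69.50, 73.71 and 74.96 FPKM with DMOG. These groups overlapped, and the test did not pass (-0.12 ± 0.04, adjusted p = 0.115, limma). The 95% interval lay within ±0.5 for 80 of 83 members. Both contrasts of roxadustat use the same roxadustat libraries.

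In libraries labelled retina (liver transcriptome), DMOG changed 20% of all 12657 genes tested (8.26% higher and 11.7% lower), and 1 of 82 members, Cox4nb, which is no subunit. None of the 75 subunits tested was called. At an unadjusted p under 0.05, 9 subunits were higher and none lower. All genes were not counted at that threshold, but 8.26% of them were higher at the stricter adjusted one. The median over the 82 members was 0.09, beside 0.01 over all genes, and 69 of 82 were above 0, beside 52.2% of all genes. Complex medians were 0.07 for complex I, 0.11 for complex II, 0.11 for complex III, 0.18 for complex IV and 0.09 for ATP synthase. Without DMOG replicate 5 they were 0.05, 0.08, 0.06, 0.14 and 0.06 for the same complexes, and 59 of 82 members were above 0. After rescaling to an equal FPKM total the members' median was -0.01 and that of all genes -0.07, so the sign of the members' median rests on the scaling. Complex I then had a median of -0.03 and ATP synthase of -0.01, while complex IV had 0.08 with 9 of 12 genes above 0. Of all calls 1046 of 2526 were higher, and 584 of 3271 after that rescaling. The 95% interval lay within ±0.5 for 78 of 82 members, beside 67.2% of all genes.

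Within the complexes under the label retina (liver transcriptome), the subunit values with DMOG ran between -0.15 (Cox7a1) and 0.32 (Cox6b2) on the log2 scale. In complex I, Ndufs7, a core subunit with the iron-sulphur cluster next to ubiquinone, had 59.8, 69.3 and 82.7 FPKM as lowest, median and highest with DMOG, against 52.3, 59.4 and 63.6 FPKM with PBS (0.21 ± 0.08, adjusted p = 0.0736, limma). Ndufa3, a membrane arm subunit, had 189.9, 204.8 and 257.6 FPKM with DMOG, against 178.0, 186.5 and 200.4 FPKM with PBS (0.20 ± 0.07, adjusted p = 0.0646). Ndufb10 was lowest, at -0.12 ± 0.15, and at -0.23 ± 0.13 without DMOG replicate 5. In complex II, Sdhc had 0.16 ± 0.11 and Sdhd -0.08 ± 0.11. In complex III all 8 genes lay between 0.00 (Uqcr10) and 0.14 (Uqcrq), with 5 above 0 after rescaling to an equal total and 7 without DMOG replicate 5. In ATP synthase all 15 genes were above 0, with 6 after that rescaling and 13 without DMOG replicate 5. Their values lay between 0.02 for Atp5e and 0.19 for Atp5l, a membrane subunit (adjusted p = 0.104).

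Complex IV had the highest median. Its 13 members, without the genes set aside by name, summed to 3369 ± 450 FPKM with DMOG (SD, n = 6 in each group). The sums were 3187 ± 219 FPKM with roxadustat and 2965 ± 164 FPKM with PBS. These sums include DMOG replicate 5 and were not rescaled. Cox7c had 431.8, 567.3 and 638.7 FPKM as lowest, median and highest with DMOG, against 424.1, 454.0 and 509.7 FPKM with PBS (0.24 ± 0.09, adjusted p = 0.0755, limma). Cox7a2 had 174.1, 235.2 and 268.6 FPKM with DMOG, against 155.9, 194.6 and 202.3 FPKM with PBS (0.24 ± 0.09, adjusted p = 0.0719). In both, the DMOG libraries reached above every PBS library and also into their range. Ndufa4, once assigned to complex I and now known as a subunit of complex IV, had 0.17 ± 0.09 (adjusted p = 0.181). Cox6b2, at 2.59 to 5.74 FPKM with DMOG and 1.82 to 5.28 FPKM with PBS, had 0.32 ± 0.18, and Cox7a1, at 0.795 to 3.31 FPKM with DMOG and 1.63 to 2.78 FPKM with PBS, had -0.15 ± 0.19.

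**Figure D3:**
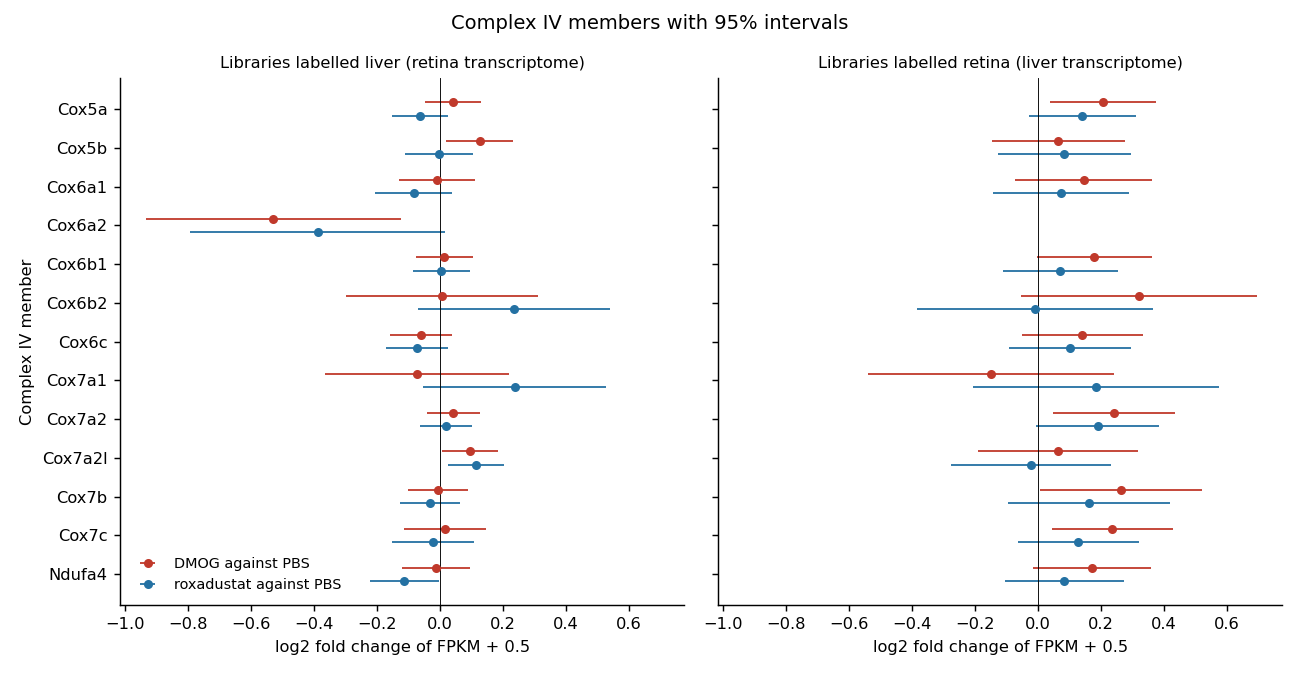
Log2 fold change of FPKM + 0.5 against PBS with 95% interval for each complex IV member, DMOG in red and roxadustat in blue, under the labels liver (left) and retina (right; Cox6a2 did not pass the filter there). The intervals of Cox6a2, Cox6b2 and Cox7a1, the lowest in level, are the widest, and 11 of 12 DMOG values under the label retina are above 0 (9 after rescaling to an equal total).

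Complexes of the same DMOG library lay on the same side of 0 under the label retina (liver transcriptome). The median deviation of the subunits from their PBS means, on the log2 scale, was 0.18, 0.33, -0.16, 0.11, 0.26 and -0.16 in DMOG replicates 1 to 6. In roxadustat replicates it was 0.18, -0.06, 0.00, 0.00, 0.16 and 0.06, and in PBS replicates -0.00, -0.02, -0.09, 0.03, -0.04 and 0.13. DMOG replicates 1, 2 and 5 thus lay above every PBS library and DMOG replicates 3 and 6 below, with a range of 0.49, against 0.24 with roxadustat and 0.22 with PBS. In DMOG replicate 2 every complex median lay above 0, between 0.26 for complex I and 0.44 for complex IV, and in DMOG replicates 3 and 6 every one lay below 0, down to -0.21. DMOG replicate 3 also had the lowest FPKM total of the table, 433021, and DMOG replicates 1 and 2 the highest, 540324 and 533469. The part of library scaling in these shifts was not tested beyond the rescaling above. Under the label liver (retina transcriptome) the ranges were 0.06 with DMOG, 0.08 with roxadustat and 0.09 with PBS.

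**Figure D4:**
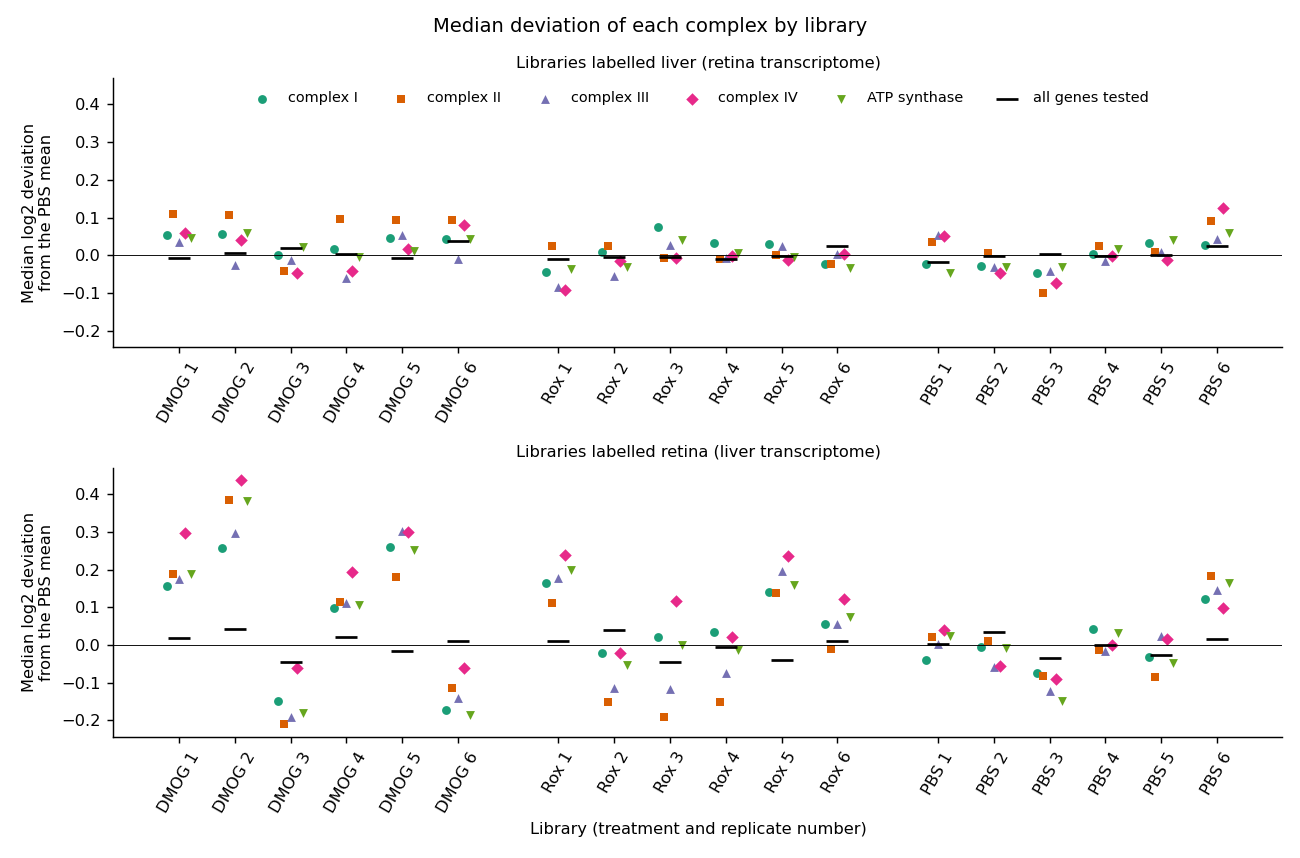
Median log2 deviation of each complex from its PBS mean in every library, with the median of all genes tested as a black dash, labels liver (top) and retina (bottom). Under the label retina all complexes of DMOG replicates 1, 2, 4 and 5 lie above 0 and all of DMOG replicates 3 and 6 below, while some roxadustat and PBS libraries have complexes on both sides of 0; all-gene medians stay within 0.05 of 0.

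Left out alone, DMOG replicate 5, the library with Egln3 at the PBS level, gave a median of 0.06 over the 82 members and 4 members called, where 35.5% of all genes were called. These were Cox4nb as lower and Ndufa3, Cox5a and Atp5sl as higher. Ndufa3 then had 0.22 (adjusted p = 0.0331) and Cox5a, a matrix-side subunit of complex IV, 0.22 (adjusted p = 0.0476, limma). Without DMOG replicate 3 there were 3 members called and without DMOG replicate 6 there were 5, with Cox7c and Ndufs7 higher in both. Medians over the members were 0.13 and 0.14 in these fits. Without PBS replicate 5 there were 2 members called. Of all 12657 genes, 20% were called with every library kept, and the number called ran between 1655 and 4489 over the alternatives. Summed hepatocyte markers were 35690 to 55680 FPKM with DMOG, 38850 to 49260 FPKM with roxadustat and 41550 to 51440 FPKM with PBS. Of 13 listed, Fgb and Fgg were called higher with DMOG, and Ahsg and Alb were at 0. Erythroid markers summed to 2765 to 5033 FPKM with DMOG, 2739 to 4022 FPKM with roxadustat and 2092 to 4330 FPKM with PBS, and macrophage markers to 554 to 1561 FPKM with DMOG, 572 to 1339 FPKM with roxadustat and 702 to 1321 FPKM with PBS, with none called. By Xist and Y-linked genes, female and male libraries numbered 4 and 2 with DMOG, 1 and 5 with roxadustat and 3 and 3 with PBS. The part of these cell types in the subunit values was not tested.

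Cox4nb fell with DMOG under the label retina (liver transcriptome). The DMOG libraries had 2.68, 2.85, 2.81, 2.80, 4.58 and 2.64 FPKM in replicates 1 to 6, against 4.39, 4.57, 4.92, 4.44, 4.39 and 5.02 FPKM in the PBS libraries. Replicate 5 was the only DMOG library inside the PBS range. The log2 fold change was -0.55 ± 0.10 (SE, n = 6 each; adjusted p = 0.0016, limma), and it was called in all 28 alternatives that tested the gene. Without DMOG replicate 5 it was -0.65 ± 0.06 (adjusted p = 7.6e-07). Roxadustat libraries had 3.70, 3.88 and 4.70 FPKM as lowest, median and highest (-0.17 ± 0.10 against PBS, adjusted p = 0.367). Against DMOG, roxadustat gave 0.37 ± 0.10 (adjusted p = 0.05002), just past the threshold, and 0.48 (adjusted p = 0.00011) without DMOG replicate 5. Under the label liver (retina transcriptome) Cox4nb averaged 18.96 ± 0.39 FPKM with DMOG and 17.2 ± 1.78 FPKM with PBS (SD, n = 6 each), not called (0.14 ± 0.06, adjusted p = 0.267), although those groups did not overlap.

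**Figure D5:**
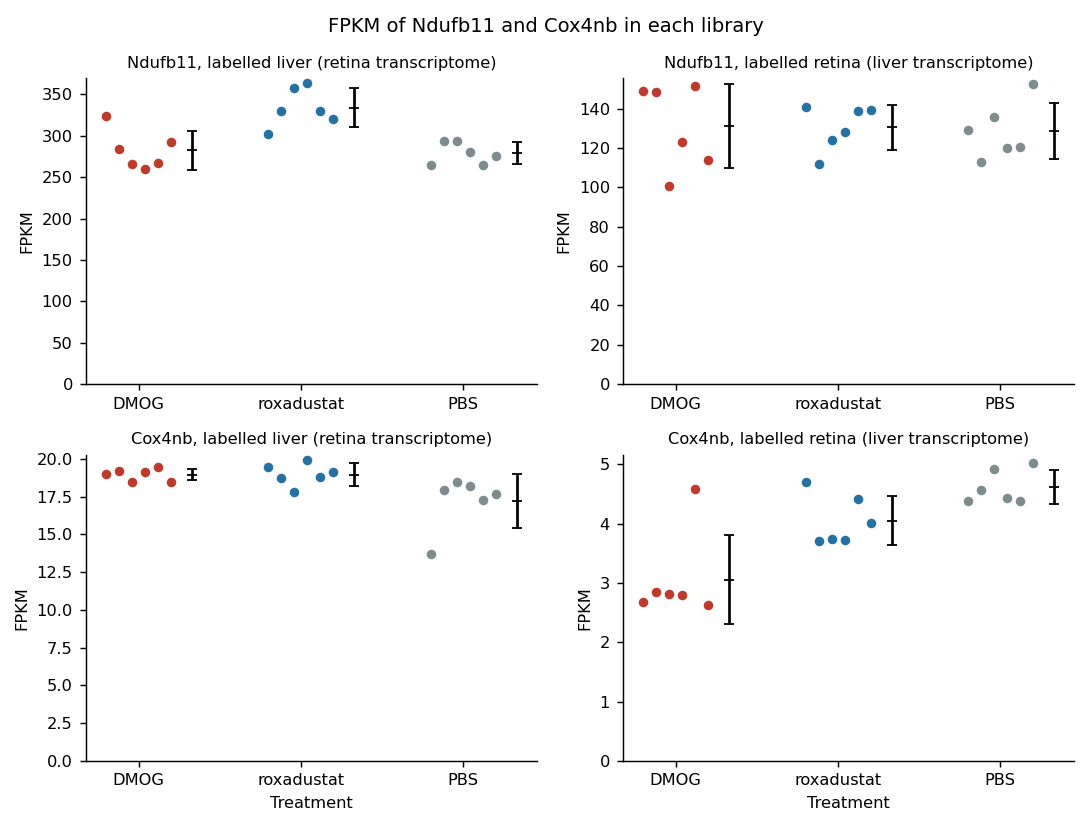
FPKM of Ndufb11 (top) and Cox4nb (bottom) in each library labelled liver (left) and retina (right), by treatment; black bars are mean ± SD of 6 libraries. Ndufb11 is higher with roxadustat (301.5 to 363.9 FPKM) than with PBS (264.6 to 294.2 FPKM) under the label liver, and 5 of 6 DMOG libraries labelled retina have 2.64 to 2.85 FPKM of Cox4nb.

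With roxadustat under the label retina (liver transcriptome), none of the 82 members was called, where 4.19% of all genes were (2.16% as higher and 2.02% as lower). At an unadjusted p under 0.05 there were 2 higher and 1 lower. The median was 0.05, beside -0.00 over all genes, with 63 of 82 above 0, beside 49.7% of all genes. It was 0.01 after rescaling to an equal total, with 45 of 82 above 0, beside -0.04 over all genes. Complex III then had a median of -0.02. Complex medians were 0.06 for complex I, -0.03 for complex II, 0.03 for complex III, 0.09 for complex IV and 0.05 for ATP synthase, and the interval lay within ±0.5 for 80 of 82 members. Ndufa3 had 202.8, 223.3 and 226.1 FPKM as lowest, median and highest with roxadustat, against 178.0, 186.5 and 200.4 FPKM with PBS. The groups did not overlap, and the test did not pass (0.22 ± 0.07, adjusted p = 0.0982, limma). Ndufv3 had 0.22 ± 0.10 (adjusted p = 0.238), and Ndufaf4, an assembly factor, -0.32 ± 0.12 (adjusted p = 0.13). Ndufb11 averaged 130.4 ± 11.4 FPKM with roxadustat and 128.5 ± 14.2 FPKM with PBS (SD, n = 6 each), a log2 fold change of 0.02 ± 0.10 (adjusted p = 0.93).

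Roxadustat against DMOG under the label retina (liver transcriptome) called none of the 82 members, where 2.99% of all genes were called (1.86% as higher and 1.14% as lower). At an unadjusted p under 0.05 there were 1 higher and 2 lower, and no subunit among them. The members' median was -0.04, beside -0.02 over all genes, and 0.01 beside 0.03 after rescaling to an equal total. All 4 genes of complex II and all 8 of complex III were below 0, between -0.16 for Sdha and -0.00 for Uqcr10. After that rescaling 1 of the 4 and 2 of the 8 were above 0, and without DMOG replicate 5, where the members' median was -0.01, 1 of the 4 and 1 of the 8. Cox6b2 had -0.33 ± 0.18 and Cox7a1 0.33 ± 0.19. Intervals lay within ±0.5 for 77 of 82 members. Without DMOG replicate 5, Cox4nb was called higher and Atp5sl lower (-0.38, adjusted p = 0.0144, limma). Over all 12657 genes 2052 were then called.

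The response to DMOG was compared between the labels as the log2 change under the label liver minus that under the label retina, over 11101 genes. Of 82 members 1 was called, Cox4nb, at 0.69 ± 0.12 (adjusted p = 3e-04, limma), where 15.9% of all genes were called (8.91% above 0 and 6.97% below). No subunit was called, with 6 lower and none higher at an unadjusted p under 0.05, and complex IV had the lowest median, -0.17. The members' median was -0.05, 0.03 after rescaling to an equal total and -0.02 without DMOG replicate 5 labelled retina. Without DMOG replicate 5 labelled retina there were 4 calls, Cox4nb, Ndufa8 and Ndufaf3 above 0 and Ndufa3 below. Of the 11101 genes 3202 were then called. Without DMOG replicate 6 labelled retina 2 members were called. Over all genes, the number called ran between 976 and 3202 over the alternatives. For roxadustat none of the 82 was called, where 2.24% of all genes were (1.03% above 0 and 1.22% below), with 1 higher and 2 lower at an unadjusted p under 0.05. The difference for Ndufb11 was 0.23 ± 0.12 (adjusted p = 0.341), so its rise under the label liver was not shown to differ between the labels. Cox5a had the lowest difference, -0.20 ± 0.09 (adjusted p = 0.23).

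Genes that build, feed or regulate the complexes were described from further lists. Under the label liver (retina transcriptome) none was called with DMOG, where 1.07% of all genes were. With roxadustat 1.69% of all genes were called higher, and in the lists 1 of 14 complex IV factors and 1 of 76 ribosomal protein genes. Roxadustat raised 2: Higd1a, a HIF target that associates with complex IV, at 64.0 ± 9.17 FPKM against 47.5 ± 5.80 FPKM with PBS (0.42 ± 0.09, adjusted p = 0.0177, limma), and Mrpl54, a protein of the mitochondrial ribosome, at 124.2 ± 14.9 FPKM against 98.0 ± 4.63 FPKM (0.33 ± 0.06, adjusted p = 0.0061; SD, n = 6 each).

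Under the label retina (liver transcriptome), 3 of 14 complex IV assembly and associated factors rose with DMOG and 2 fell, where 8.26% of all genes were called higher and 11.7% lower. Higd1a averaged 27.7 ± 7.16 FPKM with DMOG and 11.9 ± 1.89 FPKM with PBS (SD, n = 6 each; log2 fold change 1.15 ± 0.17, adjusted p = 0.00079, limma), and Cox17, the copper chaperone of complex IV assembly, had 0.28 and Cox11 0.32. Cox15 (-0.28) and Surf1 (-0.20) fell and are named after their values were seen. Of the mobile carrier genes 2 of 12 rose, Coq5 (0.32) and Coq10b (0.67) of the ubiquinone pathway, and 1 fell, Pdss2 (-0.40). Of the citrate cycle enzymes 2 of 13 rose, among them Fh1 (0.50). Among biogenesis regulators 3 of 12 rose and 1 fell: Ppargc1a, the coactivator known to drive mitochondrial biogenesis, averaged 4.65 ± 1.55 FPKM with DMOG and 2.61 ± 0.30 FPKM with PBS (0.68 ± 0.15, adjusted p = 0.0054), Nrf1 had 0.22, Yy1 (named after its value was seen) had 0.18, and Tfb1m, a methyltransferase of the mitochondrial ribosomal RNA, had -0.55. Bcs1l, which inserts the Rieske protein into complex III, fell (-0.22, adjusted p = 0.0482).

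Of 76 mitochondrial ribosomal protein genes, 3 rose with DMOG under the label retina (Mrpl45, Mrpl54 and Mrpl47) and 3 fell (Mrpl34, Mrpl49 and Mrps26, named after their values were seen), a smaller share in each direction than the 8.26% higher and 11.7% lower of all genes. Their median was -0.05. Without DMOG replicate 5 the counts were 3 higher and 13 lower, and for complex IV factors 4 higher and 4 lower. For carriers they were 3 higher and 2 lower, for the citrate cycle 4 higher and for biogenesis regulators 3 higher and 2 lower. Over all 12657 genes 4489 were then called, 2194 of them higher. After rescaling to an equal total, Cox17, Cox11, Nrf1, Mrpl47 and Mrpl54 were no longer called, and 14 ribosomal protein genes were lower and 1 higher. Most calls over all genes were also lower after that rescaling, as counted above. None of the listed genes of complex II assembly or of ATP synthase assembly and inhibition was called in any comparison of the treatments or under the rescalings or without DMOG replicate 5, by limma with adjustment over all genes. Of 7 complex I assembly genes none was called with DMOG, but Acad9 was lower after rescaling by the median ratio, and Acad9 and Tmem186 (named after their values were seen) were lower at an equal total and without DMOG replicate 5.

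With roxadustat under the label retina (liver transcriptome), Higd1a rose as well (1.19 ± 0.17, adjusted p = 0.00074, limma), as did Coq10a (0.45), Coq10b (0.69) and Mrpl54 (0.27). They were 1 of 14 complex IV factors, 2 of 12 carrier genes and 1 of 76 ribosomal protein genes, where 2.16% of all genes were higher. Mrpl54 was no longer called after rescaling to an equal total. Against DMOG, roxadustat was lower for Ppargc1a, at 2.10 ± 0.32 FPKM against 4.65 ± 1.55 FPKM with DMOG (SD, n = 6 each; -0.94 ± 0.15, adjusted p = 0.004), and for Cox10 (-0.35), Coq5, Gabpb1, Mrpl45 and Mrpl47, and higher for Coq10a (0.49) and Pdss2 (0.42). Of these, Coq5, Gabpb1 and Mrpl47 were no longer called at an equal total. Of all genes in this comparison 1.86% were called higher and 1.14% lower. Female and male libraries numbered 4 and 2 with DMOG and 1 and 5 with roxadustat. With sex in the model the calls over all genes fell from 379 to 78, and the listed genes were not examined in that fit. The subunits encoded by mitochondrial DNA were not analysed here.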

How the data were processed

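Each table holds 18 libraries, 6 per treatment. The authors deposited FPKM values per gene, which per the submitters' processing notes come from bcl2fastq 1.8.3, TopHat2 (version 2) and Cuffdiff 2.2.1 on mm9; the annotation and any use of strand in counting are not given in the sources used here. Libraries were TruSeq Stranded Total RNA with Ribo-Zero Gold, per the labels. FPKM carries no read numbers, so depth is unknown and no counting interval is given. One total row was left out. Within each table, genes averaging 0.5 FPKM or more were tested on log2(FPKM + 0.5) with limma 3.58.1 (R 4.3.3, variance trend), as group means of 3 treatments, and p-values were adjusted over all genes by Benjamini-Hochberg. Differences of the drug responses between labels used all 36 libraries. Groups came from titles, and no library was dropped or imputed. Members and lists were chosen with earlier results of these data known. Members named are those called (12 at most per comparison), the highest and lowest fold change and level of each complex and the isoform sets. Cox5a, Ndufa8, Ndufaf3, Ndufaf4 and Atp5sl were named after their values were seen. Mitochondrial DNA genes were not analysed here, and some single genes are not reported here. Multi-copy families and pseudogenes make single levels uncertain. The fit was tested on simulated data. Alternatives changed the pseudocount, filter, scaling, groups in the fit, sex term and replicate block and left out each library.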

Additional observations from a re-analysis of the deposited data

Results flagged for a closer look

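Over the 41 members named by rule, which make 246 groups of 6 libraries, 1 library lay far from the other 5 in 13 groups, where chance gives about 12 (1 in 20). With DMOG under the label retina (liver transcriptome), replicate 5 had 4.58 FPKM of Cox4nb, with the next at 2.85 FPKM. It is also the library with Egln3 at the PBS level. Under the label liver (retina transcriptome), PBS replicate 1 was the far one for 4 of these members: Cox4nb had 13.7 FPKM (next 17.3), Cox6a2 1.66 FPKM (next 0.808), Cox7c 765 FPKM (next 651) and Sdha 76.5 FPKM (next 107). DMOG replicate 3 there had 139 FPKM of Ndufs7 (next 148) and 107 FPKM of Sdhd (next 123), DMOG replicate 4 had 69.5 FPKM of Ndufs1 (next 73.2), and roxadustat replicate 1 had 4.99 FPKM of Cox6b2 (next 7.82). Under the label retina, roxadustat replicate 4 had 199 FPKM of Cox7a2 (next 215) and PBS replicate 3 had 156 FPKM of it (next 191). Roxadustat replicate 1 had 13.7 FPKM of Ndufa11 (next 11.5), and PBS replicate 6 had 385 FPKM of Atp5e (next 345).

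The response of Cox4nb to DMOG differed between the labels by 0.689 on the log2 scale (liver minus retina, SE 0.12, adjusted p = 3e-04, limma).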

How the results depend on the processing

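Counting each member once per alternative and comparison, no called value changed sign, 10753 values kept their side of the threshold, 15 lost the call and 21 gained one. The number of members called moved as follows, and the cause was not tested. Under the label liver, DMOG against PBS gave 1 with the replicate block, and 0 to 1 with one library left out (1 without PBS 5). Roxadustat against PBS gave 0 at an equal total, 2 with the block, and 0 to 2 with one left out (0 without roxadustat 3, 2 without PBS 5). Roxadustat against DMOG gave 0 at an equal total, with only the compared groups in the fit and with the block, and 0 to 2 with one left out. With sex in the model Ndufb11 was not called. Under the label retina, DMOG against PBS gave 0 at a filter of 5 FPKM, which removes Cox4nb, 2 at an equal total and 2 by the median ratio, and 1 to 5 with one left out. Roxadustat against PBS gave 1, Ndufa3, with only the compared groups. Roxadustat against DMOG gave 1, Cox4nb, with a pseudocount of 0.1, at an equal total and by the median ratio, and 0 to 2 with one left out. The DMOG difference between labels gave 0 at the 5 FPKM filter, 2 at an equal total and 1 to 4 with one left out, and that of roxadustat 0 to 1 (Cox4nb, without DMOG 5). Over all genes tested, the calls of DMOG against PBS under the label liver were 147 and ran between 48 and 420 over the alternatives, and roxadustat against PBS had 323 and as few as 190. Under the label retina DMOG against PBS had 2526 (1655 at the 5 FPKM filter to 4489 without DMOG 5), roxadustat against PBS 530 (325 to 1229) and roxadustat against DMOG 379 (62 with only the compared groups to 2052 without DMOG 5). The differences between labels had 1763 (976 to 3202) for DMOG and 249 (113 to 527) for roxadustat.

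Deviations of libraries with the same replicate number had a mean correlation of 0.036 (-0.24 to 0.315) under the label liver. Under the label retina it was 0.0256 (-0.333 to 0.546). Libraries with other numbers had -0.00735 and -0.00375. Under these labels 4 of 18 and 7 of 18 libraries correlated best with their own number. The labels do not say whether a number marks a shared animal, and these values do not settle it. With 6 libraries a group, the median SE of members was 0.05 under the label liver and 0.10 under the label retina, and smaller changes than the intervals were not detectable.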
